A study of Mus musculus with 28 samples.

Results

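The genes of the oxidative phosphorylation machinery were followed in PB MNCs (peripheral blood mononuclear cells) of C57Bl6 mice across doses of total body irradiation (TBI). They were chosen by name: a probe entered when its single platform gene symbol began with Nduf, Sdh followed by a to d, Uqcr, Cox followed by 4 to 8, or Atp5. This gave 96 of 16722 probes and 85 of 9135 genes with a single symbol. Of the 85 genes, 76 encode subunits, with 34 in complex I, 4 in complex II, 7 in complex III, 14 in complex IV and 17 in complex V. The other 9 matched by spelling and comprised 8 assembly factors and the pseudogene Ndufs5-ps. All 85 genes, among 9076 in all, had at least 5 values in every group and were tested.

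The study compared 4 groups of 7 mice, labelled Normal (nonirradiated, 0 cGy), 50cGy, 200cGy and 1000cGY. All were 10-week-old female C57Bl6 mice, irradiated mice received a single fraction from a Cs137 source, and blood was taken 6 h later. PB MNCs were separated on a Ficoll density gradient, and the RNA of each mouse was hybridised on 1 dual-channel oligonucleotide array against a universal mouse reference RNA. A level below is the log2 ratio of sample to reference after each array was centred on its median, and a difference of 1 between groups is a doubling. Levels were compared only within a gene, because a ratio to a reference does not rank genes. Each sample was a separate mouse, so the spread covers mice and arrays together.

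The arrays were alike in coverage but not identical. The median log2 ratio per array before centring was -0.19 ± 0.07 (SD, n = 7) in nonirradiated mice, -0.15 ± 0.04 at 50 cGy, -0.29 ± 0.10 at 200 cGy and -0.44 ± 0.06 at 1000 cGy, so the shift that centring removed moved with dose. Missing values per array ran from 14 to 439 of 16722, and 3 arrays (1 nonirradiated and 2 at 1000 cGy) had over 200. The array of 50cGy replicate 1 stood apart from the other 6 of its group in 9 of the 29 genes chosen to be named, so counts at that dose are also given without it.

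Oxidative phosphorylation takes place at the mitochondrial inner membrane. Complexes I (NADH dehydrogenase) and II (succinate dehydrogenase) pass electrons to ubiquinone, complex III hands them to cytochrome c, and complex IV (cytochrome c oxidase) passes them to oxygen. Complexes I, III and IV pump protons as they do so, and complex V, the ATP synthase, uses the proton gradient to make ATP. Most subunits are encoded in the nucleus, as all those analysed here are, and a few of complexes I, III, IV and V are encoded by mitochondrial DNA. Lymphocytes and monocytes depend on this pathway at rest, whereas mature neutrophils rely mainly on glycolysis and platelets use both.

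Nuclear genes of this pathway are known to share promoter elements for the factors NRF1, GABP (an ETS factor), YY1 and ERR. RefSeq promoter windows (build GRCm38.p6, 300 bases around the start of each gene) were matched for 72 of the 85 genes, giving 77 windows. The motif GCGCANGCG (NRF1) was found on either strand in 29.9% of these windows, against 6.25% of all 32851 windows. For CCGGAAG (ETS) the share was 23.4% against 8.86%, for AANATGGC (YY1) 24.7% against 6.05%, and for TCAAGGTCA (ERR) 2.60% against 0.423%. ETS and YY1 matches may overlap each other. Among the complexes, 12 of 33 complex I windows and 1 of 10 complex IV windows held the YY1 motif, 8 and 1 held the NRF1 motif, and 3 and 3 held the ETS motif. Windows of 4 genes are shown because these genes carry the opposite dose patterns described below: Cox8a and Cox6b1, which rose, and Atp5g1 and Ndufs3, which fell. Capitals mark matches to the ETS motif on either strand, and each window is written 5′ to 3′ on the gene's own strand, which is the minus strand in all 4.
Cox8a (chr19:7217567-7217866): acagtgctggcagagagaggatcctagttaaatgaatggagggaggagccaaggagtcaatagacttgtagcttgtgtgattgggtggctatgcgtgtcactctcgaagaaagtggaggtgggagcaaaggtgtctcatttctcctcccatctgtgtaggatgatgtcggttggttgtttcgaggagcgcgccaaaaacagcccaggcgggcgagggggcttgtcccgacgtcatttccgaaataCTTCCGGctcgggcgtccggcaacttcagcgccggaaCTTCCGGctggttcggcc
Cox6b1 (chr7:30626065-30626364): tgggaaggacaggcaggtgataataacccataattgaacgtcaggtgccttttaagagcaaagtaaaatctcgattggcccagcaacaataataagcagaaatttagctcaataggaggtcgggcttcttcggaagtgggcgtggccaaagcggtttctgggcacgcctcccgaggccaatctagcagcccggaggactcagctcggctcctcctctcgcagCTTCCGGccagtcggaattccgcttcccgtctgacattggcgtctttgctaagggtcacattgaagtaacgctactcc
Ndufs3 (chr2:90904672-90904971): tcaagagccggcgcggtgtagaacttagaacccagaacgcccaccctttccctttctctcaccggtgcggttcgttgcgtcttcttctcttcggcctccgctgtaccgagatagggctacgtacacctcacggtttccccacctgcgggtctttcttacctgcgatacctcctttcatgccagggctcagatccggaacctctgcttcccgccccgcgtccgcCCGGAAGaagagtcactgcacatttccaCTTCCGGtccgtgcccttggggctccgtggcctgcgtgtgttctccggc
Atp5g1 (chr11:96075582-96075881): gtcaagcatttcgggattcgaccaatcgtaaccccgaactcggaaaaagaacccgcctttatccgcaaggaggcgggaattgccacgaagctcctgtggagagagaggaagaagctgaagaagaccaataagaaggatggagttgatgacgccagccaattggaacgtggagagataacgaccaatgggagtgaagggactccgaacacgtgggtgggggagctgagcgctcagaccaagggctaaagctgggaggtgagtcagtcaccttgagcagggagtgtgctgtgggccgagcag
The Cox8a and Ndufs3 windows each held 2 ETS matches and the Cox6b1 window held 1, so the motif occurred on both sides of the dose pattern. The Atp5g1 window held none of the 4 motifs, which says only that those letters are not in it. Binding of the factors was not measured.

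The members did not move as a block. At 50 cGy against nonirradiated mice, 17 members rose and 4 fell (limma, Benjamini-Hochberg adjusted p under 0.05 over 9076 genes), when 8.02% of all genes tested rose and 3.88% fell. The 17 were 20.0% of the members, and the 4 were Ndufb3, Cox6c, Atp5g3 and Atp5pb. At 200 cGy, 24 rose and 19 fell, against 23.2% and 20.3% of all genes. At 1000 cGy, 31 rose and 29 fell, against 40.8% and 25.9% of all genes, or 36.5% and 34.1% of the members. The median difference over the 85 genes was 0.07, 0.04 and 0.00 at the 3 doses, where the median over all genes tested was -0.01, 0.04 and 0.17. The share of members called was thus above the background at 50 cGy (24.7% against 11.9%) and near it at 200 cGy (50.6% against 43.5%) and 1000 cGy (70.6% against 66.7%). Without 50cGy replicate 1 the 50 cGy counts were 19 higher and 6 lower. The comparisons with nonirradiated mice share those 7 control samples. Over the 4 groups, 75.8% of all genes tested differed by the F test.

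Between doses, 14 members were higher and 21 lower at 200 cGy than at 50 cGy, when 19.7% and 20.7% of all genes were (40.5% in either direction). From 200 to 1000 cGy, 6 were higher and 21 lower, when 20.0% and 11.9% of all genes were (31.9% in either direction). The 6 that were higher included 5 genes of complex IV and Atp5l, whereas 11 of the 21 that were lower belonged to complex I. This last count rests on the shared spread of the 4 groups, since a fit of those 2 groups alone called 3 higher and 8 lower. It also moved with single libraries, from 3 higher and 10 lower without 200cGy replicate 1 to 6 higher and 26 lower without 200cGy replicate 6.

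**Figure D1:**
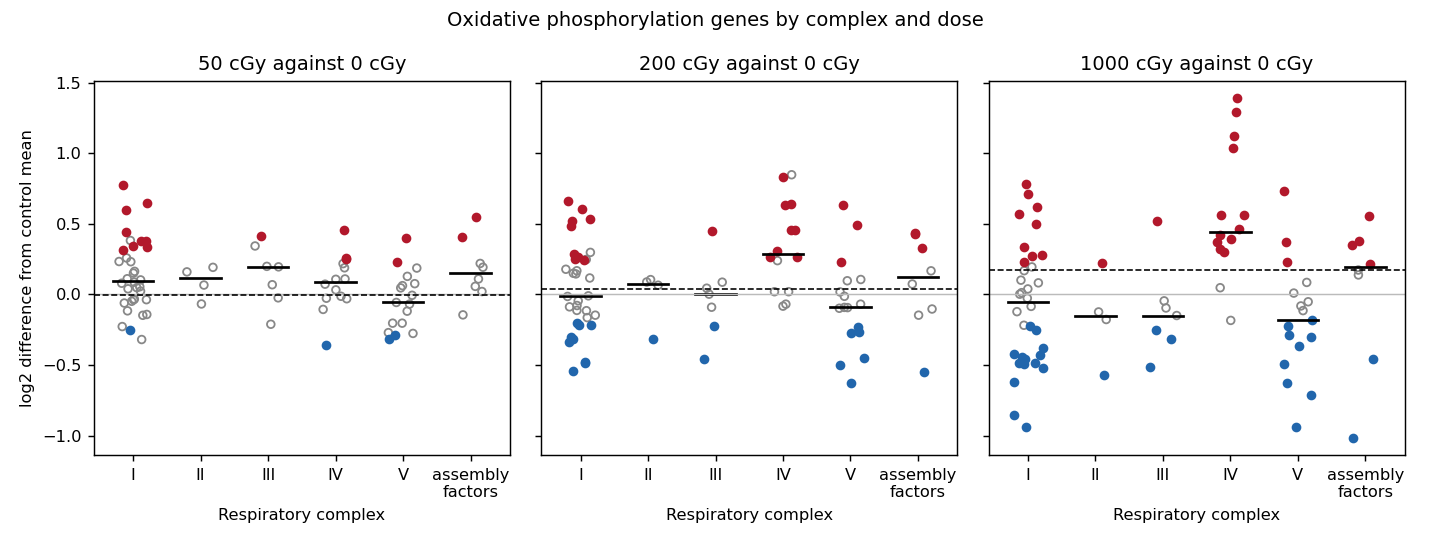
Each point is the log2 difference of 1 gene between an irradiated group and the nonirradiated mice (7 mice each), by respiratory complex, with filled points for genes called higher (red) or lower (blue), open points for genes not called, a bar for the median of the complex and a dashed line for the median of all genes tested. At 1000 cGy 12 of the 14 complex IV points are red, between 0.30 and 1.39, and the other complexes hold points on both sides of 0.

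Most genes of complex IV, cytochrome c oxidase, were called higher at the upper doses. At 50 cGy 3 of its 14 genes rose and 1 fell, at 200 cGy 8 rose and none fell, and at 1000 cGy 12 rose and none fell. The share higher was thus 57.1% at 200 cGy and 85.7% at 1000 cGy, where 23.2% and 40.8% of all genes tested were higher and 20.3% and 25.9% lower. Its median difference was 0.09, 0.28 and 0.44 at the 3 doses. From 50 to 200 cGy and again from 200 to 1000 cGy 5 genes were called higher, but 1 in each step when arrays were not centred. Averaged over the 14 genes relative to the control mean, the nonirradiated mice ranged from -0.14 to 0.12, the 50 cGy mice from -0.17 to 0.18, the 200 cGy mice from 0.18 to 0.50 and the 1000 cGy mice from 0.36 to 0.76. Every mouse at 200 and 1000 cGy therefore lay above every nonirradiated mouse, while the 50 cGy mice overlapped the controls. No test was made of this average or of one complex against another, as the genes were grouped with earlier results known.

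Cox8a, the ubiquitous form of the smallest nuclear-encoded subunit, had the largest difference of any member. Its level in nonirradiated mice ran from -1.24 to -0.93 (median -1.05), at 50 cGy from -1.02 to -0.65 (median -0.77), at 200 cGy from -0.31 to -0.17 (median -0.23) and at 1000 cGy from 0.11 to 0.65 (median 0.28). From 50 cGy on, no group overlapped the next, and only 1 mouse of the 50 cGy group fell within the control range. The difference from nonirradiated mice was 0.26 at 50 cGy (SE 0.0731, adjusted p = 0.0215), 0.83 at 200 cGy (adjusted p = 4.22e-10) and 1.39 at 1000 cGy (adjusted p = 4.1e-15), a 2.62-fold rise at the highest dose. The steps from 50 to 200 cGy (0.57, adjusted p = 4.8e-07) and from 200 to 1000 cGy (0.56, adjusted p = 3.86e-06) also passed the test. Without 50cGy replicate 3 the difference in Cox8a at 50 cGy was 0.23 (adjusted p = 0.0564).

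Cox6b1, a subunit on the intermembrane-space side near the cytochrome c docking site, already stood apart at the lowest dose. Control levels ran from -1.38 to -1.08 (median -1.19), against -1.03 to -0.66 (median -0.69) at 50 cGy, -0.78 to -0.41 (median -0.54) at 200 cGy and -0.54 to 0.26 (median -0.14) at 1000 cGy. All 21 irradiated mice lay above all 7 controls. The differences were 0.46 (SE 0.1, adjusted p = 0.00411), 0.64 (adjusted p = 7.4e-06) and 1.04 (adjusted p = 8.48e-10), and the last was a 2.05-fold rise.

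Cox5a, a matrix-side subunit, ranged from -0.85 to 0.20 (median -0.25) in controls and from 0.39 to 1.57 (median 0.76) at 1000 cGy, with no overlap. It rose by 0.63 at 200 cGy (SE 0.171, adjusted p = 0.00359) and by 1.12 at 1000 cGy (adjusted p = 2.23e-06), while 0.22 at 50 cGy did not pass (adjusted p = 0.428). Its spread was wide, and 2 of the 200 cGy mice lay within the control range. Cox6c, another accessory subunit, moved in opposite directions. All 7 mice at 50 cGy (-1.19 to -0.92, median -1.04) were below all controls (-0.85 to -0.49, median -0.67), whereas the 1000 cGy mice (-0.66 to 0.03, median -0.37) were mostly above them. The differences were -0.36 (SE 0.0985, adjusted p = 0.0185) and 0.32 (adjusted p = 0.0061), and the latter was 0.07 (adjusted p = 0.54) when arrays were not centred.

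Complex IV has tissue isoforms for several subunits. Of the pairs, the ubiquitous Cox4i1 rose by 0.46 at 1000 cGy (SE 0.0835, adjusted p = 2.7e-05), from -0.64 to -0.27 (median -0.50) in controls to -0.34 to 0.16 (median -0.02). Its counterpart Cox4i2, known from lung, had a difference of 0.39 (adjusted p = 0.0095), which did not pass the test without centring (0.14, adjusted p = 0.284), and its groups overlapped widely. Cox6a1, the liver-type form, rose by 0.56 (SE 0.102, adjusted p = 2.47e-05), and all 7 mice at 200 cGy (-0.57 to -0.35, median -0.42) were above all controls (-1.23 to -0.59, median -0.88). The heart and muscle form Cox6a2 had the second largest difference at 1000 cGy, 1.29, but with the largest error of the complex (SE 0.406, adjusted p = 0.00701). Cox6a2 controls ran from -2.51 to -0.94 (median -1.70), the 200 cGy mice from -2.07 to 0.77 (median -0.89) and the 1000 cGy mice from -1.64 to 0.25 (median -0.21), so the groups overlapped. Cox7a2, the ubiquitous form of subunit 7a, rose by 0.46 at 200 cGy (SE 0.0717, adjusted p = 6.6e-06) and 0.56 at 1000 cGy (adjusted p = 1.33e-07), with no overlap with controls at either dose. Cox8b, the muscle form of subunit 8, differed by 0.30 at 1000 cGy (SE 0.118, adjusted p = 0.0289) and by 0.05 without centring (adjusted p = 0.756). Cox7b2, a testis form, and Cox7b were the only members of complex IV called at no dose. The 10 genes left without 4 tissue forms (Cox4i2, Cox6a2, Cox7b2 and Cox8b) counted 9 higher and none lower at 1000 cGy, with a median of 0.51.

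The remaining complex IV genes, Cox5b (0.37 at 1000 cGy) and Cox7c (0.42), were called higher at 200 and 1000 cGy, and Cox7c also at 50 cGy. Without centring neither passed at 200 or 1000 cGy. In a fit of single probes, 1 of the 2 Cox7c probes passed at 50 and 200 cGy (0.49 and 0.39). The other did not at those doses (0.02 and 0.14), and both passed at 1000 cGy. Ndufa4 has a complex I name and was counted under it, although it is now known as a complex IV subunit. Its levels ran from -0.65 to -0.30 (median -0.39) in controls and from -0.53 to 0.83 (median 0.40) at 1000 cGy, where 6 of 7 mice lay above all controls. It rose by 0.49 at 200 cGy (SE 0.147, adjusted p = 0.00836) and by 0.71 at 1000 cGy (adjusted p = 0.000146). Counted under complex IV, it gave that complex 13 of 15 genes higher at 1000 cGy and left complex I with 8 higher and 14 lower of 33.

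**Figure D2:**
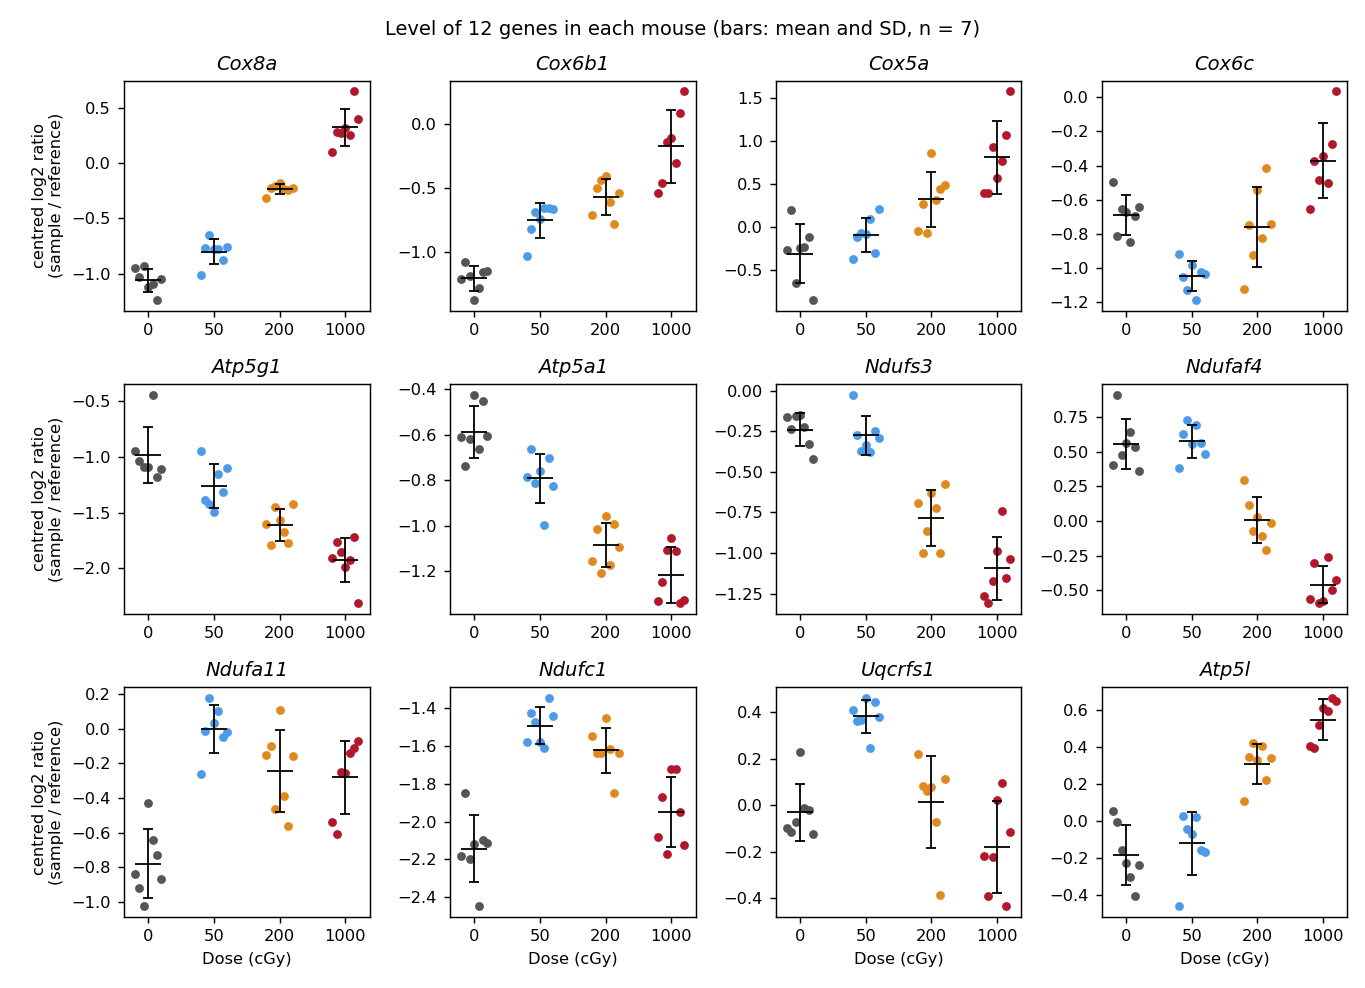
Each point is the centred log2 ratio to the reference RNA of 1 gene in 1 mouse, by dose, with the mean and SD of 7 mice as bars, for 12 genes of complexes I, III, IV and V and the assembly factor Ndufaf4. Cox8a rises from a median of -1.05 to 0.28 across the doses, Atp5g1 and Ndufs3 fall, and Ndufa11, Ndufc1 and Uqcrfs1 have their highest mean at 50 cGy.

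Complex I, the largest complex, was split. At 50 cGy 9 of its 34 genes rose and 1 fell, at 200 cGy 9 rose and 9 fell, and at 1000 cGy 9 rose and 14 fell, with medians of 0.09, -0.01 and -0.06. The shares called higher were 26.5% at each dose, against 8.02%, 23.2% and 40.8% of all genes. The shares called lower were 2.9%, 26.5% and 41.2%, against 3.88%, 20.3% and 25.9%. From 200 to 1000 cGy 11 were lower and none higher. The mean over the 34 genes lay between 0.12 and 0.16 relative to the control mean in all 7 mice at 50 cGy, above all controls (-0.09 to 0.04), and between -0.16 and -0.01 at 1000 cGy, where the groups overlapped. Among the 6 core subunits measured, 1 rose at 50 cGy (Ndufs7, 0.33, adjusted p = 0.00411), 2 fell at 200 cGy and 3 fell at 1000 cGy (Ndufs1, Ndufs3 and Ndufv2). All 9 complex I genes that rose at 1000 cGy were accessory subunits, as were 11 of the 14 that fell.

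Ndufs3, a core subunit of the peripheral arm, differed by -0.03 at 50 cGy, which did not pass (adjusted p = 0.838), and fell at the higher doses. Control levels ran from -0.42 to -0.15 (median -0.22), against -1.0 to -0.58 (median -0.73) at 200 cGy and -1.31 to -0.74 (median -1.15) at 1000 cGy. Both higher doses lay wholly below the controls, with differences of -0.54 (SE 0.0874, adjusted p = 1.02e-05) and -0.85 (adjusted p = 2.34e-09). Ndufab1, the mitochondrial acyl carrier protein, fell most of the complex. It ranged from 0.06 to 0.91 (median 0.62) in controls and from -0.86 to -0.12 (median -0.37) at 1000 cGy, and fell by 0.48 at 200 cGy (SE 0.142, adjusted p = 0.00755) and by 0.94 at 1000 cGy (adjusted p = 2.06e-06).

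Against these stood accessory subunits that rose. Ndufs4, whose loss in mice causes a fatal brain disease, was 0.60, 0.66 and 0.78 higher at the 3 doses (SE 0.145, adjusted p = 0.00808, 0.000447 and 3.7e-05). Its controls ran from -0.83 to -0.28 (median -0.54) and the 1000 cGy mice from -0.22 to 0.71 (median 0.25), above all controls. Ndufb9, of the membrane arm, was 0.34, 0.60 and 0.62 higher (SE 0.0761, adjusted p = 0.00449, 2.43e-07 and 6.17e-08), and all 14 mice at the 2 higher doses were above its control range of -1.81 to -1.49 (median -1.74).

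A further set had its highest mean at the lowest dose. Ndufa11, a membrane-arm subunit, ran from -1.03 to -0.43 (median -0.84) in controls and from -0.26 to 0.18 (median -0.01) at 50 cGy, with no overlap. The difference was 0.78 at 50 cGy (SE 0.109, adjusted p = 3.28e-05), and 0.53 and 0.50 at 200 and 1000 cGy (adjusted p = 0.000197 and 0.00025), the last being 0.25 (adjusted p = 0.0886) without centring. Ndufc1 ran from -2.45 to -1.85 (median -2.12) in controls and from -1.61 to -1.34 (median -1.47) at 50 cGy, again with no overlap. It rose by 0.65 at 50 cGy (SE 0.0868, adjusted p = 2.13e-05) and 0.52 at 200 cGy (adjusted p = 1.66e-05), but 0.19 at 1000 cGy did not pass (adjusted p = 0.05). The step down from 200 to 1000 cGy was -0.33 (adjusted p = 0.007). From 50 to 200 cGy the step did not pass in Ndufa11 (-0.24, adjusted p = 0.0761) or Ndufc1 (-0.13, adjusted p = 0.232). Ndufa10 and Ndufv3 rose at 50 cGy (0.38 each, adjusted p = 0.0178 and 0.0109) and fell at 1000 cGy (-0.52 and -0.46, adjusted p = 8.19e-05 and 0.000155). Their steps from 50 to 200 cGy passed (-0.39 and -0.42, adjusted p = 0.00348 and 0.00085). Over all members, 4 genes were called in opposite directions at 50 and 1000 cGy, the others being Cox6c and Atp5g2. In Atp5g2 this held for the mean of its probes, and no single probe passed in both directions.

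Further genes of complex I were called as well. At 1000 cGy the rises of Ndufa1 (0.57), Ndufa2 (0.23), Ndufa3 (0.33), Ndufa7 (0.28) and Ndufa13 (0.27) and the falls of Ndufa5, Ndufa9, Ndufa12, Ndufb2, Ndufb3, Ndufb4, Ndufb10 and Ndufb11 (from -0.38 to -0.62) passed the test. Without centring Ndufa2, Ndufa3, Ndufa7 and Ndufa13 did not pass. In a fit of single probes, 2 of the 3 Ndufb4 probes passed at 1000 cGy (-0.54 each) and the other did not (-0.07). Ndufb5 and Ndufs6 rose at 50 cGy and did not pass at 1000 cGy, and Ndufa8 passed at 200 cGy alone. Ndufa6, Ndufb7, Ndufb8, Ndufc2, Ndufs8 and Ndufv1 passed at no dose. In Ndufc2 1 control mouse stood at -0.14 when the control median was -1.13.

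All 4 genes of complex II were measured. Sdha, the flavoprotein that oxidises succinate, ran from -0.32 to -0.11 (median -0.26) in controls and from -0.99 to -0.45 (median -0.86) at 1000 cGy, with no overlap. It fell by 0.31 at 200 cGy (SE 0.0957, adjusted p = 0.00869) and by 0.57 at 1000 cGy (adjusted p = 9.5e-06). The iron-sulfur subunit Sdhb did not pass at any dose (0.19, 0.09 and -0.12, adjusted p = 0.193, 0.499 and 0.254). Sdhc, a membrane anchor, was above all controls (-0.91 to -0.71, median -0.84) in all 7 mice at 50 cGy (-0.70 to -0.60, median -0.68), but the difference of 0.16 did not pass (SE 0.0814, adjusted p = 0.202). Its step from 200 to 1000 cGy was -0.28 (adjusted p = 0.0112). The other anchor, Sdhd, differed by 0.23 at 1000 cGy (SE 0.0988, adjusted p = 0.0464), and this sign turned without centring (-0.02, adjusted p = 0.863).

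Of the 7 genes of complex III, 1 was called higher at each dose, while 0, 2 and 3 were called lower at 50, 200 and 1000 cGy. Of all genes tested, 8.02%, 23.2% and 40.8% were higher and 3.88%, 20.3% and 25.9% lower. At 1000 cGy the complex III counts became 0 higher and 6 lower without centring, when 25.8% and 37.2% of all genes were. Under quantile normalization they were 1 and 2, when 29.3% and 29.6% of all genes were. Uqcrfs1, the Rieske iron-sulfur protein, was raised at the lowest dose. All 7 mice at 50 cGy (0.25 to 0.46, median 0.38) were above all controls (-0.12 to 0.23, median -0.07). The difference was 0.41 (SE 0.0894, adjusted p = 0.00366), against 0.04 at 200 cGy and -0.15 at 1000 cGy (adjusted p = 0.735 and 0.14), and the step from 50 to 200 cGy was -0.37 (adjusted p = 0.00171). Uqcrc2, a core protein, was below all controls (-0.49 to -0.28, median -0.40) in all 21 irradiated mice. It differed by -0.21 at 50 cGy (SE 0.0831, adjusted p = 0.0919), and fell by 0.46 at 200 cGy (adjusted p = 4.72e-05) and by 0.51 at 1000 cGy (adjusted p = 5.49e-06). The small subunit Uqcr11 rose at 200 and 1000 cGy (0.45 and 0.52, the latter 0.27 with adjusted p = 0.0872 without centring), Uqcrb fell at both (-0.22 and -0.32), Uqcrc1 fell at 1000 cGy (-0.25), and Uqcr10 and Uqcrh passed at no dose.

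The ATP synthase, complex V, was lower in its catalytic part. Of its 17 genes, 2, 3 and 3 were called higher at the 3 doses, and 2, 6 and 9 were called lower. Of all genes tested, 8.02%, 23.2% and 40.8% were higher and 3.88%, 20.3% and 25.9% lower. The complex V counts lower at 200 and 1000 cGy were 6 and 12 without centring, and 4 and 6 under quantile normalization. The 5 genes of the F1 head (Atp5a1, Atp5b, Atp5c1, Atp5d and Atp5e), which holds the catalytic sites, counted 4 lower at 200 cGy and 5 lower at 1000 cGy with none higher. Their mean ranged from -0.10 to 0.05 in controls and from -0.58 to -0.20 at 1000 cGy. Atp5a1, the alpha subunit, ran from -0.74 to -0.42 (median -0.61) in controls, from -1.21 to -0.96 (median -1.09) at 200 cGy and from -1.34 to -1.05 (median -1.25) at 1000 cGy. Both higher doses lay below all controls, with differences of -0.50 (SE 0.0707, adjusted p = 1.61e-06) and -0.63 (adjusted p = 1.32e-08).

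The membrane ring of subunit c, through which the protons pass, is encoded by Atp5g1, Atp5g2 and Atp5g3, which give the same mature protein. Their coding sequences are alike, and whether the probes of one also bind RNA of another was not tested. All 3 were lower at 1000 cGy, and their mean ranged from -0.73 to -0.51 there against -0.10 to 0.20 in controls. Atp5g1 controls ran from -1.18 to -0.44 (median -1.09), the 200 cGy mice from -1.79 to -1.43 (median -1.60) and the 1000 cGy mice from -2.31 to -1.72 (median -1.91). The gene fell by 0.63 at 200 cGy (SE 0.109, adjusted p = 2.89e-05) and by 0.94 at 1000 cGy (adjusted p = 2.45e-08), a 1.92-fold fall, with no overlap at either dose. Atp5g3 fell at all 3 doses, by 0.29, 0.45 and 0.71 (SE 0.0847, adjusted p = 0.026, 4.69e-05 and 2.49e-08), and 1 of its 50 cGy arrays had no value. The fall at 50 cGy did not pass without Normal replicate 3, 50cGy replicate 3 or 50cGy replicate 7 (adjusted p = 0.052, 0.0552 and 0.0578). Atp5g2 rose at 50 cGy (0.23, adjusted p = 0.0314) and fell at 1000 cGy (-0.18, adjusted p = 0.0257), though its 2 probes differed at 1000 cGy (-0.40 and 0.04). In a fit of single probes, 1 passed at 50 cGy (0.30) and not at 1000 cGy (0.04). The other passed at 1000 cGy (-0.40) and not at 50 cGy (0.17).

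The remaining genes of the synthase were mixed. At 1000 cGy 1 of 4 peripheral stalk genes was called higher and none lower, and of 5 accessory genes of the membrane part 2 were called higher and 1 lower. Of all genes tested, 40.8% were higher and 25.9% lower at that dose. Atp5l, subunit g of the membrane part, ran from -0.41 to 0.05 (median -0.23) in controls, from 0.11 to 0.42 (median 0.34) at 200 cGy and from 0.39 to 0.67 (median 0.59) at 1000 cGy. All 14 mice at these doses lay above all controls, with differences of 0.49 (SE 0.0827, adjusted p = 1.74e-05) and 0.73 (adjusted p = 1.48e-08). In the peripheral stalk, Atp5o, the oligomycin sensitivity protein, rose at all 3 doses (0.40, 0.64 and 0.37). Atp5pb, subunit b of the stalk, fell at 50 cGy (-0.32, SE 0.0743, adjusted p = 0.00655), from -0.87 to -0.51 (median -0.60) in controls to -1.07 to -0.81 (median -0.98), and was 0.25 higher again at 200 than at 50 cGy (adjusted p = 0.00952). Without centring the Atp5o difference at 1000 cGy was 0.12 (adjusted p = 0.38). Atp5md was called higher at 200 and 1000 cGy (0.23 each), but at neither dose without centring, when its sign at 1000 cGy turned (-0.02). In a fit of single probes, 1 of its 2 probes passed at these doses (0.27 and 0.36) and the other did not (0.19 and 0.10). Atp5k fell at 1000 cGy (-0.30), a call lost under quantile normalization, and Atp5h, Atp5j, Atp5j2 and Atp5mpl passed at no dose.

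**Figure D3:**
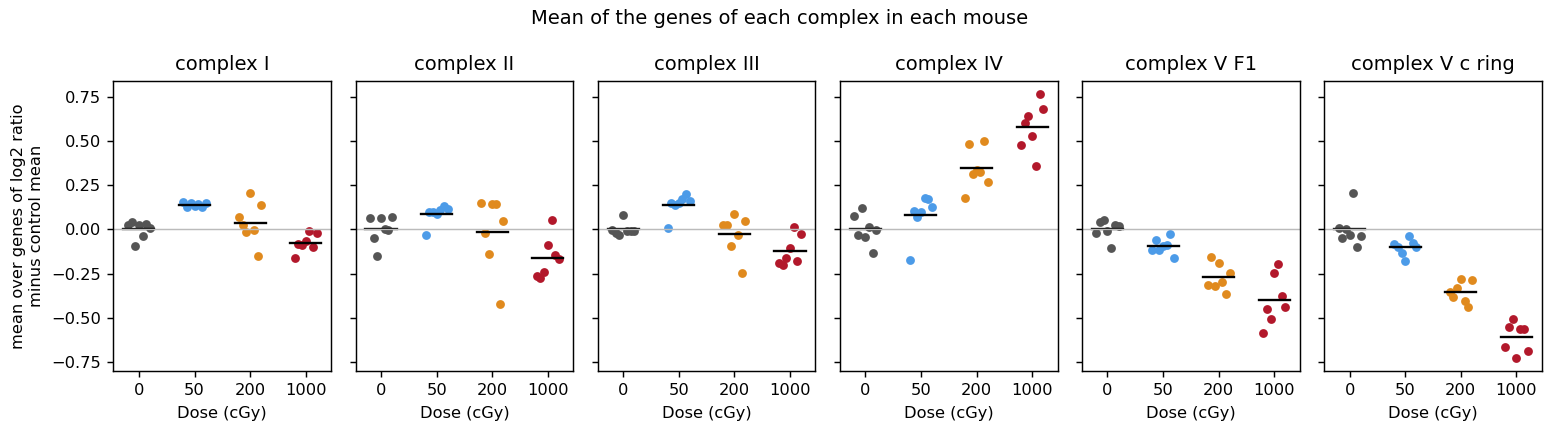
Each point is the mean over the genes of a complex, or of the F1 head and c ring of complex V, of the log2 ratio minus the control mean in 1 mouse, and the bar is the mean of 7 mice. Complex IV at 1000 cGy lies between 0.36 and 0.76 and the c ring between -0.73 and -0.51, while the mean bars of complexes I, II and III are highest at 50 cGy.

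The 8 assembly factors were mixed too. Ndufaf4, which helps assemble complex I, fell by 0.55 at 200 cGy (SE 0.0881, adjusted p = 8.98e-06) and by 1.02 at 1000 cGy (adjusted p = 9.22e-11), the largest fall of any member. Its controls ran from 0.36 to 0.92 (median 0.53), the 200 cGy mice from -0.21 to 0.30 (median -0.01) and the 1000 cGy mice from -0.59 to -0.26 (median -0.50), with no overlap. Both of its probes fell at 1000 cGy, by 1.45 and 0.59. Cox7a2l, known for its part in joining complexes into supercomplexes, had its highest mean at 50 cGy. It ran from 0.63 to 1.17 (median 0.76) in controls and from 1.24 to 1.52 (median 1.40) at 50 cGy, and rose by 0.55 at 50 cGy (SE 0.0888, adjusted p = 0.000225) and by 0.43 at 200 cGy (adjusted p = 0.000249), while 0.17 at 1000 cGy did not pass (adjusted p = 0.0874). The step from 50 to 200 cGy did not pass either (-0.12, adjusted p = 0.284). Sdhaf2 and Ndufaf3 were called higher at 200 and 1000 cGy, Sdhaf4 at 50 and 1000 cGy and Ndufaf7 at 1000 cGy. Without centring Sdhaf2 alone of these 4 was called at 1000 cGy, and Ndufaf7 turned sign (0.21 to -0.04). Ndufaf5 fell at 1000 cGy and Ndufaf1 passed at no dose. Of the 2 Ndufaf5 probes fitted singly, 1 passed at 1000 cGy (-0.66) and the other did not (-0.26). Ndufs5-ps differed by 0.17 at 1000 cGy (adjusted p = 0.0326), but by -0.08 without centring and 0.01 under quantile normalization, neither of which passed. Its 2 probes differed in sign at 50 cGy (0.23 and -0.30). In a fit of single probes neither passed at 1000 cGy (0.11 and 0.22). Whether these probes also bind RNA of the parent gene Ndufs5 was not tested.

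Across the 3 doses, 7 members rose at every dose (Cox6b1, Cox7c, Cox8a, Ndufa11, Ndufb9, Ndufs4 and Atp5o). Without centring, Cox7c did not pass at 200 or 1000 cGy, and Ndufa11 and Atp5o did not pass at 1000 cGy. Another 2 fell at every dose (Ndufb3 and Atp5g3), though neither passed at 50 cGy without centring. A further 13 rose and 17 fell at both 200 and 1000 cGy but not at 50 cGy, and 17 passed at no dose. More than 1 probe was present for 10 genes, and only in Ndufb4 were probes called in opposite directions, at 50 cGy (-0.29 and 0.28 at the extremes of 3 probes). Groups did not overlap for 12 members above and 4 below the controls at 50 cGy (3.28% and 1.82% of all genes), 11 and 7 at 200 cGy (9.63% and 9.27%), and 10 and 16 at 1000 cGy (14.6% and 12.9%).

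**Figure D4:**
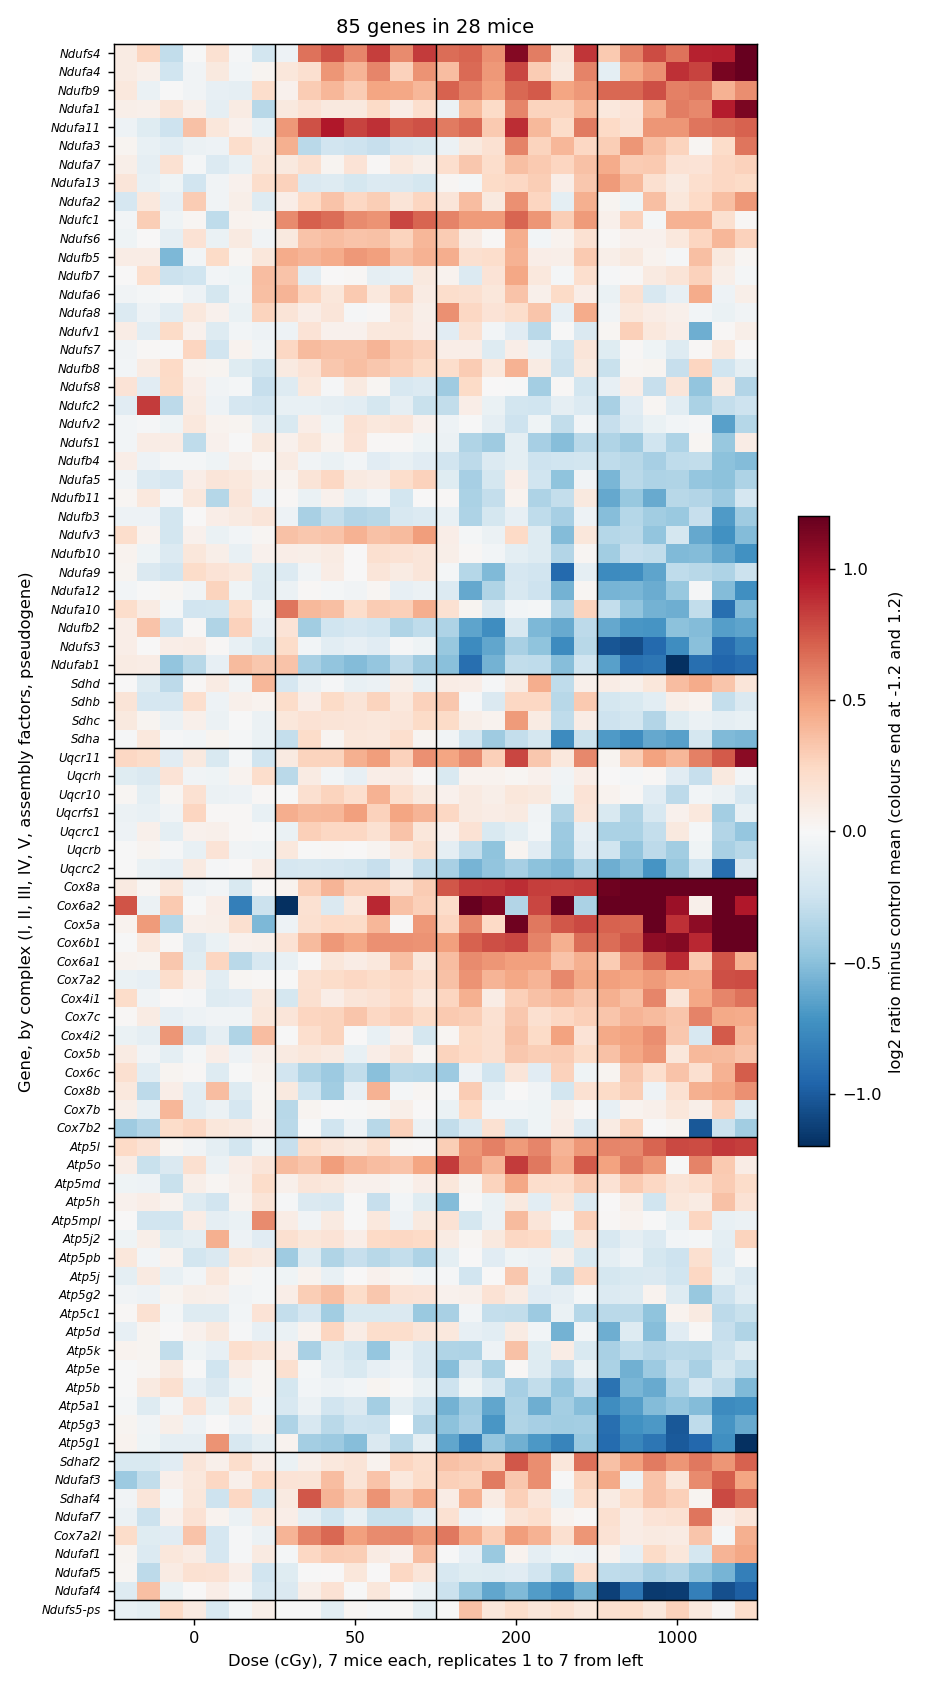
Colour gives the log2 ratio minus the control mean of each of the 85 genes (rows, ordered within a complex by the difference at 1000 cGy) in each of 28 mice (columns, by dose), with colours ending at -1.2 and 1.2 and the 1 missing value in white. The complex IV block turns red at 200 and 1000 cGy, and complexes I, III and V each hold genes of both colours.

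How an array was scaled shifted these counts. Centring moved the median of all genes at 1000 cGy to 0.17, without centring it was -0.08, and under quantile normalization 0.02. Without centring, 13 members rose and 44 fell at 1000 cGy, when 25.8% and 37.2% of all genes did. Under quantile normalization 27 rose and 23 fell, when 29.3% and 29.6% of all genes did. Of the 31 rises called with centring, 13 were also called without it and 26 under quantile normalization, and of the 29 falls 29 and 23 were. For complex IV the counts were 7 higher and 2 lower without centring and 10 and 0 under quantile normalization. Relative to the median of all genes, complex IV stood at 0.27 with centring, 0.27 without and 0.48 under quantile normalization, and complex I at -0.23, -0.23 and -0.05. Complex V stood at -0.35, -0.35 and -0.11. Of the 60 members called at 1000 cGy, 5 changed sign without centring and 1 under quantile normalization. Cox8a, Cox6b1 and Cox5a kept a rise, and Ndufs3, Atp5g1, Atp5a1 and Ndufaf4 kept a fall, at 200 and 1000 cGy under all 3 scalings.

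**Figure D5:**
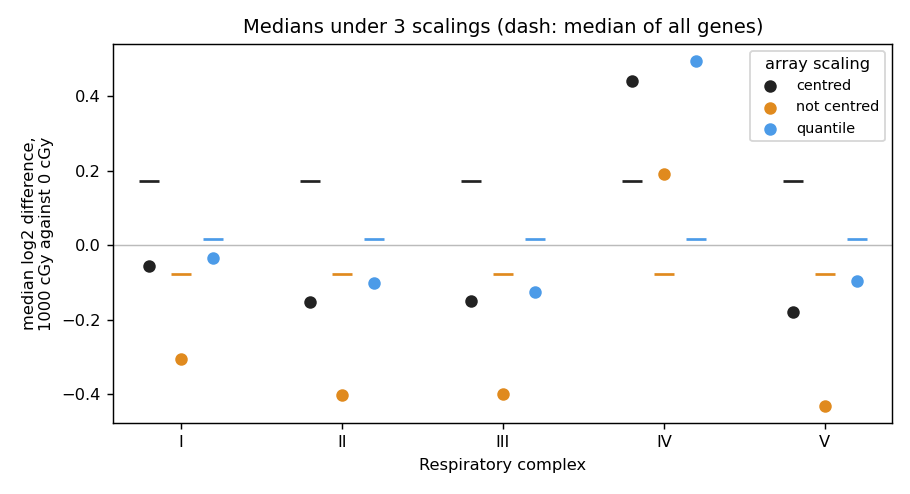
Points are the median log2 difference at 1000 cGy of the genes of each complex and dashes the median of all genes, with arrays centred, not centred or quantile normalized. Complex IV stays above the median of all genes under each scaling, at 0.44, 0.19 and 0.49.

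Related genes outside the naming rule were read from lists. In the pyruvate dehydrogenase and TCA cycle list, 16 of 18 genes were measured, and none rose at any dose while 3, 7 and 7 fell at 50, 200 and 1000 cGy. Of all genes tested 3.88%, 20.3% and 25.9% fell at these doses and 8.02%, 23.2% and 40.8% rose, and the counts of the lists that follow are to be read against the same shares. Citrate synthase (Cs) fell by 0.80 at 200 cGy and 0.78 at 1000 cGy (adjusted p = 8.88e-08 and 5.14e-08), and fumarase (Fh1) by 1.13 at 1000 cGy (adjusted p = 1.17e-11). Of 13 measured regulators of mitochondrial biogenesis (18 listed), 6 fell and 1 rose at 200 cGy, and 8 fell with 2 higher at 1000 cGy. Tfam, which packages and transcribes mitochondrial DNA, fell by 1.15 and 1.66 (adjusted p = 1.5e-09 and 3.11e-13), and Polg, the mitochondrial DNA polymerase, fell by 0.98 at 1000 cGy (adjusted p = 6.89e-10). Among the factors behind the promoter motifs, Gabpa fell by 0.43 at 200 cGy (adjusted p = 0.000649) while its partner Gabpb1 rose by 0.55 (adjusted p = 9.72e-05), Yy1 fell by 0.44 and Esrra rose by 0.46 at 1000 cGy (adjusted p = 9.34e-05 and 0.000541), and Nrf1 did not pass at any dose.

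The carriers of electrons, ADP/ATP and phosphate (9 of 10 measured) counted 3 higher and 1 lower, 3 and 5, and 3 and 4 at the 3 doses. Vdac3, an outer-membrane channel, rose by 0.94 at 1000 cGy (adjusted p = 7.22e-07), and Slc25a5, an ADP/ATP carrier, fell by 0.59 (adjusted p = 2.15e-06). Assembly factors outside the rule (15 of 27 measured) counted 1 and 1, 4 and 4, and 5 and 5, with Cox20, for complex IV, at -1.06 and Atpaf2, for F1, at 1.08 at 1000 cGy (adjusted p = 1.57e-10 and 6.41e-07). Of 7 further symbols listed outside the rule, only Cyc1 and Fmc1 were found among the genes tested. Whether the others were older names of member genes was not checked, so they cannot be called unmeasured. The same holds for symbols of the other lists that were not found, since lists were matched by symbol alone. Cyc1, cytochrome c1 of complex III, rose at 50 cGy (0.44, adjusted p = 0.0117) and did not pass at the other doses, and Fmc1 rose at 50 cGy (0.47) and fell at 1000 cGy (-0.45).

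Markers of blood cell types moved with dose. All 6 measured B cell markers of 8 listed fell at 200 and 1000 cGy, with list medians of -1.78 and -3.29, and their mean level ran from 3.36 to 3.91 in controls, 3.06 to 3.57 at 50 cGy, 1.41 to 2.06 at 200 cGy and 0.08 to 0.61 at 1000 cGy. All 5 neutrophil markers (of 8) rose, with medians of 2.30 and 2.90, and their mean level ran from 2.29 to 4.19 in controls, 2.50 to 3.06 at 50 cGy, 4.71 to 5.79 at 200 cGy and 5.62 to 6.49 at 1000 cGy. All 4 monocyte markers (of 8) rose as well (0.83 and 1.25), from 1.41 to 2.31 in controls, 1.55 to 1.90 at 50 cGy, 2.94 to 3.52 at 200 cGy and 3.28 to 3.78 at 1000 cGy. Of the 6 platelet markers (of 8), 3 rose at 50 cGy and all 6 at the higher doses (1.00, 1.81 and 2.61), from 1.56 to 4.34 in controls, 4.01 to 4.94 at 50 cGy, 4.41 to 5.67 at 200 cGy and 5.53 to 6.88 at 1000 cGy.

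Of 3 T cell markers measured (of 8), 2 rose and 1 fell at 1000 cGy, and their mean level ran from 3.07 to 3.45 in controls and 2.94 to 3.33 at 1000 cGy. Of 3 NK and cytotoxic markers (of 8), 2 rose at 1000 cGy, from 2.78 to 3.47 in controls to 3.36 to 4.22. Of the 2 erythroid markers (of 8), Alas2 rose (1.07) and Tfrc, which dividing cells also express, fell (-2.53) at 1000 cGy. No marker of these lists was at 0, as the values are ratios. The part of these markers in the changes of the oxidative phosphorylation genes was not tested, and in a bulk sample fewer cells of a type and less RNA per cell cannot be told apart.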

How the data were processed

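RNA of PB MNCs from 28 mice (4 groups of 7, grouped by sample title) was hybridised on dual-channel oligonucleotide arrays, with the sample in Cy5 and the reference RNA in Cy3. The deposited values are log2 ratios of sample to reference, which the authors made from GenePix median ratios leaving out each spot whose Cy3 or Cy5 signal was below 100. How arrays were normalized to each other is not stated in the sources used, and spot intensities were not used here, so the signal over background behind a value is unknown and the number of arrays limits the precision. Of 16722 probes, 10820 carried 1 gene symbol in the platform annotation, 232 several and 5670 none. Only those with 1 were named.

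Each array was centred on its median, probes needed at least 5 values in every group, and probes of one symbol were averaged, which left 9076 genes. Group means over all 28 samples were fitted with limma 3.58.1 in R 4.3.3. Every adjusted p in the report is limma's moderated test, two-sided, with Benjamini-Hochberg adjustment and a threshold of 0.05. The adjustment ran over 9076 genes in the main fit, and over the genes or probes kept in each altered fit. Summaries and figures used Python 3.11.15, numpy 2.4.6, pandas 2.3.3 and matplotlib 3.10.9. The fit was tested on simulated data, in which a far smaller share of genes changed than was called at any dose in the mice. Recovery in the mice may differ, because the adjustment depends on that share. Across the 3 simulated doses the fit recovered 43% to 50% of log2 changes of 0.5 and 88% to 91% of changes of 1. A gene that did not pass may therefore still differ. The highest correlation between any pair of arrays was 0.987, so no array was a copy of another.

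Genes named with full values were Cox6b1 and Cox8a, the 3 largest rises and falls at each dose, the 2 with the smallest F test p in each complex, complex II, and the complex IV isoform families. The other genes named were chosen after their values were seen. Members and lists were chosen with earlier results of these data known. Alternatives covered centring, quantile normalization, the missing-value filter, probe choice, array weights, robust moderation, the samples fitted, a replicate block and each replicate left out. Leaving out 3 arrays with over 200 missing values, and setting values at the lowest ratio of the table (0.01) to missing, were added after seeing the data. RefSeq promoter windows were matched by gene ID, and protein sequences were not used here.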

Additional observations from a re-analysis of the deposited data

Results flagged for a closer look

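In each group of 7 mice the highest and lowest values of the 29 named genes were set against the others, by the gap to the nearest mouse as a share of the group's range. Of 116 such groups, 15 exceeded Dixon's critical value, where chance gives about 1 in 20. Of the 15, 9 were the same library, 50cGy replicate 1. That mouse lay below the other 6 in Atp5l (-0.464 against -0.1687 to 0.022), Cox4i1 (-0.6933 against -0.4066 to -0.2441), Cox6a2 (-3.458 against -1.8613 to -0.788), Cox7a2 (-1.1344 against -0.9419 to -0.8779), Ndufb9 (-1.6514 against -1.3997 to -1.231), Ndufs4 (-0.5966 against 0.033 to 0.3083) and Sdha (-0.5325 against -0.2072 to -0.0182). It lay above them in Ndufab1 (0.8766 against 0.0097 to 0.2142) and Ndufs3 (-0.0249 against -0.3787 to -0.2516).

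The other 6 were spread over 6 libraries. Atp5g1 was high in Normal replicate 5 (-0.4399, the others up to -0.9446), and Uqcrfs1 in Normal replicate 4 (0.227, the others up to -0.0126). Sdhc was high in 50cGy replicate 7 (-0.5977, the others up to -0.661), and Sdha in 1000cGY replicate 5 (-0.452, the others up to -0.7706). Atp5g3 was low in 200cGy replicate 3 (-1.706, the others down to -1.4952), and Ndufab1 in 1000cGY replicate 4 (-0.8563, the others down to -0.4234). Each of these values is a level on the centred log2 scale.

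Without 50cGy replicate 1, the counts at 50 cGy were 9 higher and 2 lower in complex I, 2 and 0 in complex III, 4 and 1 in complex IV and 2 and 3 in complex V.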

How the results depend on the processing

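Several settings moved the counts of members. Without centring, 50 cGy had 2 lower, 1000 cGy 13 higher and 44 lower, 200 against 50 cGy 2 and 34, and 1000 against 200 cGy 1 and 33, while 7 genes of complex IV and 4 of complex I were higher at 1000 cGy. The Sdhd difference at 1000 cGy was then -0.0248. Quantile normalization gave 7 lower at 50 cGy and 12 lower in 1000 against 200 cGy. Array weights gave 27 higher and 13 lower at 50 cGy, when the shares of all genes also went up, to 15.6% and 9.05%. In 1000 against 200 cGy, a fit of those 2 groups alone gave 3 higher and 8 lower, and leaving out 3 arrays with over 200 missing values 3 and 10.

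Leaving out 1 replicate at a time, the count lower at 50 cGy ran from 2 (without 50cGy replicate 3) to 6 (without 50cGy replicate 1), and in 1000 against 200 cGy from 3 (without 200cGy replicate 1, 1000cGY replicate 6 or 1000cGY replicate 7) to 8 (without 1000cGY replicate 1 or 1000cGY replicate 2) higher and from 10 (without 200cGy replicate 1) to 26 (without 200cGy replicate 6) lower. The count lower also dropped past 1.5 times without 200cGy replicate 4 (12), 200cGy replicate 7 (11) and 1000cGY replicate 6 (13). The counts at 1000 cGy ran from 27 to 33 higher and 27 to 29 lower, and complex IV from 11 to 12 higher. Over the differences of the 29 named genes, 920 values kept their side of the threshold, 19 newly passed it, 14 no longer passed it and 1 changed sign. With a replicate left out these were 1185, 15, 18 and 0. A change of sign was counted only where the difference passed in the main or the altered fit. Differences that passed in neither counted as keeping their side, even where the sign turned. An example is Cox6a2 at 50 cGy, which ran from -0.1662 to 0.2788 with a replicate left out. The counts of members and of complexes were not part of this tally.

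Replicate numbers did not pair the mice: deviations of same-numbered samples had a mean correlation of -0.019 over 42 pairs, 10 of them over 0.1, and only 4 of 28 correlated best with a sample of the same number. With the number as a replicate block the counts were 17 higher and 4 lower, 24 and 19, and 31 and 29 at the 3 doses, 14 and 19 for 200 against 50 cGy, and 5 and 17 for 1000 against 200 cGy. Signal over background could not be examined.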
